A study of Drosophila melanogaster with 6 samples.

Results

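Tagged RNA from whole Drosophila embryos was followed from hour 1 to hour 3 of a chase with uridine only (UO), by setting the array of the 3-hour chase against the array of the 1-hour chase. Genes were taken when both UO chase columns of the authors' table held a value, which gave 8335 genes of 9488 genes with any value in that table. Of these, 8209 genes had a 3-hour value of at least 50 on at least 1 probe and were described together, and probes under 50 at 3 hours are given apart. A second source, the UO scanner files, gave 7773 genes above background on both chase arrays, 7084 of them also in the table set. The series holds 6 arrays, with 1 array for each of 3 time points in 2 chase series. Embryos were wildtype in genotype, carried UAS-T.g.UPRT without a GAL4 driver, were at stages 12 to 15, and were permeabilised. The authors' paper names either of their UAS-T.g.UPRT lines for whole embryos and does not state which line gave each array. All groups had a 1-hour pulse of 1 mM 4-thiouridine at 30 °C, which tags RNA made in every tissue without the UPRT transgene. Both UO chase groups then had 10 mM uridine at 30 °C for 1 or 3 hours with no actinomycin D, while the U+actD groups had uridine with actinomycin D, an inhibitor of transcription. Embryos of each time point were pooled before RNA extraction, so each array stands for 1 pool of all tissues. There was no replicate of any group, no test was possible, and the values below describe these arrays.

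In a pulse-chase assay of this kind (TU-decay), the thiol on newly made RNA allows it to be purified, and its loss during the chase follows decay of RNA made during the pulse. mRNA decay in the cytoplasm usually starts with shortening of the poly(A) tail, followed by removal of the cap and digestion from the 5′ end, or by digestion from the 3′ end. mRNAs for housekeeping proteins such as ribosomal proteins are known as long lived in many organisms, and mRNAs for growth and developmental regulators such as Myc as short lived. Without actinomycin D transcription goes on during the chase, and tag still in the embryo could enter new RNA until uridine has displaced it.

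There were 20 marker genes for tissues of a late embryo (srp stands for hemocytes and for gut and is counted once). Of these, 16 had a UO value of at least 50 at 3 hours, and 14 of the 16 had a 1-hour intensity of at least 500. elav, the pan-neuronal RNA-binding protein, went from 12353 to 3703, and the glial regulator repo from 3611 to 1244. The muscle regulator Mef2 went from 1983 to 1155, at 0.97 relative to the median gene. The other muscle markers lay below the median gene, at -1.32 (Mhc) and -0.45. The tracheal regulator trh went from 5047 to 1564 and the gut regulator GATAe from 4378 to 1415. The synaptic marker nSyb went from 660 to 35, under that limit, and the fat body markers Fbp1 and Lsp2 and the cuticle gene Cpr49Aa had no UO value in the table. Relative to the median gene the markers' late changes ran from -1.32 to 1.09 with a median of 0.18. In such whole-embryo RNA, fewer cells of a type and less tagged RNA per cell cannot be told apart.

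The sources for UO did not hold the same numbers. Divided by the factors inferred from its columns, the table equalled the scanner signal within 0.5 of a unit at 0.0209% of 9572 probes at the 1-hour chase and at 0.0627% at the 3-hour chase, although levels ranked alike across probes (Spearman's rho 0.92 and 0.88). Late changes ranked less alike, with a rho of 0.27 over 7084 genes, or 0.26 over 5026 genes whose table signal was at least 500 on both chases. Which source holds the arrays that the labels name was not settled here. The values below are from the table, as intensity on the authors' scale, unless UO scanner is named. Scanner values at 3 hours were put on the 1-hour scale by 5 spike-in transcripts. Relative to 1 hour the spike-ins scaled the 3-hour array by 0.782 and the pulse array by 2.45. The factors read from the table were 0.769 and 0.838 relative to 1 hour. The factors of the sources were thus alike at 3 hours and about 3-fold apart at the pulse. Since the values before scaling were not the same, like factors do not put the sources on the same scale. No array was repeated, and probes of a gene give the nearest measure of error. For 740 genes with exactly 2 probes, the late changes of the probes differed by a median of 0.54 log2, and 1 in 10 genes differed by over 1.61. With at least 500 on both chases the median difference was 0.35 over 377 genes.

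The comparison asks how far tagged RNA declined between hours 1 and 3. In the UO table the median gene changed by -1.75 on the log2 scale (95% interval of the median over genes -1.76 to -1.74), which leaves 29.8% of the 1-hour level. The middle 50% of genes ran from -2.05 to -1.35. Read as a 2-point late half-life over 120 minutes, the median was 68.6 minutes, with quartiles at 58.6 and 88.96 minutes. In UO scanner the median gene changed by -2.52 (interval -2.54 to -2.51), leaving 17.4%, with a median late half-life of 47.5 minutes. In U+actD, from arrays that share nothing with UO, the median gene of 9088 genes changed by -1.83. These intervals describe genes within an array, and the error of an array is not in them. Per hour, the late loss of the median gene was 0.87 log2 in the table. The change from the pulse to the 1-hour chase was -0.57 log2 in the same genes, and both intervals use the 1-hour array. UO scanner had a late change of -1.27 per hour and an early change of -0.61 (7492 genes), the latter resting on the pulse factor that differed between the sources.

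**Figure D1:**
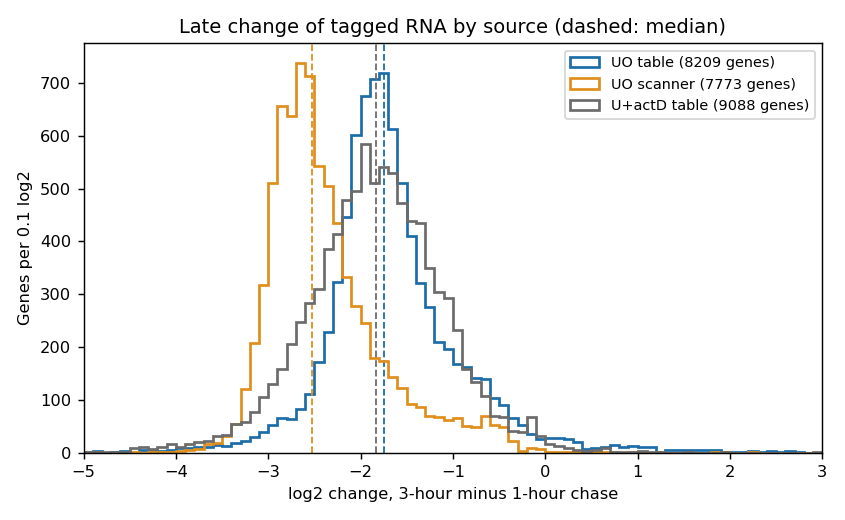
Number of genes per 0.1 log2 (y axis) by log2 change from the 1-hour to the 3-hour chase (x axis) in UO table, UO scanner and U+actD table, with dashed lines at the medians of -1.75, -2.52 and -1.83. The axis stops at -5 and 3, which leaves 12 UO table genes outside, and UO scanner lies to the left of the table.

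Most genes stayed near the median gene. A late half-life of 60 to 90 minutes was held by 3861 genes (47.0%), one of 30 to 60 minutes by 2318 genes (28.2%) and one of 120 minutes or more by 984 genes (12.0%). Under 30 minutes there were 30 genes. Calling a gene by a 2-fold departure from the median gene, 816 of 8209 genes lay above it (9.94% of genes) and 352 below it (4.29%). The 3-hour value was not lower than the 1-hour value for 240 genes (2.92%). UO scanner had 794 above (10.2% of 7773 genes), 53 below (0.682%) and 18 not lower (0.232%). In U+actD they were 676 above (7.44%), 737 below (8.11%) and 74 not lower (0.814%).

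The departures varied with the 1-hour signal. Genes were put in 8 classes by that signal, which is also the starting value of the change. Class and change are therefore linked by construction, and probes under 50 at 3 hours are left out. How much of the pattern comes from this was not tested. In the lowest class (3.90 to 412, 1027 genes) the median change was -0.68, and the median 3-hour signal was 183. From the third class up the median change lay between -1.88 and -1.79 in every class. Of all probes of at least 50 at 3 hours, 19.1% had a 3-hour signal between 150 and 260, against 2.75% with a 1-hour signal in that range. The lowest class held 575 of the 816 genes called above the median gene and 201 of the 240 not lower. At the other end 201 genes were near the ceiling of the scanner (at least 50000 before the inferred factor) on a chase array, and the highest class held 96 of the genes called above. Among the 8008 genes not near the ceiling, 734 lay 2-fold above the median gene (9.17%) and 342 below (4.27%). The 6 classes between the lowest and highest held 145 genes 2-fold above of 6156 (2.36%), genes near the ceiling included. They also held 321 of the 352 genes 2-fold below. In UO scanner the median of the same genes fell from -1.69 in the lowest class to -2.69 in the highest, and in U+actD it rose from -2.02 to -1.43. With at least 500 on both chases, 188 of 5073 genes lay 2-fold above (3.71%), 57 below (1.12%) and 33 were not lower.

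**Figure D2:**
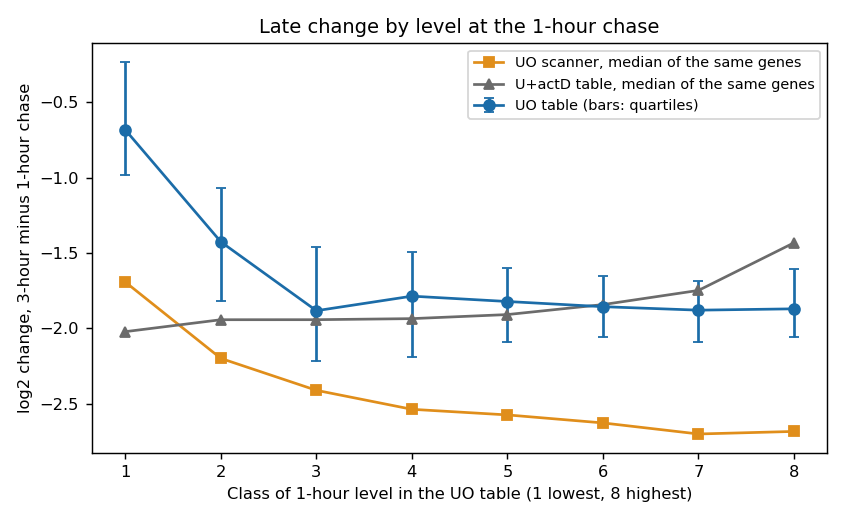
Median log2 change from the 1-hour to the 3-hour chase (y axis) in 8 classes of the 1-hour UO table signal (x axis). For UO table the 1-hour signal enters both axes. Bars are the quartiles of UO table, whose median is -0.68 in the lowest class and between -1.88 and -1.79 from class 3 up.

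The 10 highest and 10 lowest genes were taken among those with a symbol other than a CG or CR number, a 1-hour signal of at least 500 and a 3-hour signal of at least 50, not near the ceiling at 1 hour, above background in UO scanner and on the same side of the median gene in both UO sources. This left 2498 genes to choose from. The table changes chose them and are given as a description. Dfd, the homeotic gene of posterior head segments, was the highest, going from 1451 to 16038 in the table. In UO scanner the same gene went from 618 to 165 and in U+actD from 3832 to 919, so its rise was seen in the table only. RpLP0, a protein of the ribosomal stalk, went from 15517 to 60656, the latter near the ceiling. CadN, a cadherin of axons and growth cones, went from 4579 to 10858 in the table and from 440 to 87.2 in UO scanner. The replicative histone His3:CG31613 went from 3172 to 4941, and His1:CG31617, a linker histone, from 21023 to 23475. The adenylyl cyclase Ac3, the Arf-binding protein Arfip, the ribosomal protein sta, the histone His4r and Gclc, the catalytic subunit of the enzyme that starts glutathione synthesis, made up the 10, with table changes of 0.91, 0.33, 0.22, 0.17 and 0.13. All 10 had lower values at 3 hours than at 1 hour in UO scanner. The 3-hour table values of RpLP0, sta, His4r and a probe of His1:CG31617 were near the ceiling, and RpLP0 and sta had saturated UO scanner probes at 1 hour, so their changes are not exact. Relative to the median gene the 10 lay 1.88 to 5.22 above in the table and 0.10 to 0.95 above in UO scanner.

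The 10 lowest lost over 90% of their 1-hour signal in the table. Zasp52, a Z-disc protein of muscle, went from 1725 to 74, and kn, the COE-family transcription factor collier, from 1426 to 62. TFAM, the mitochondrial transcription factor A that binds and packs mitochondrial DNA, went from 39072 to 1851, after 6743 at the pulse. MsrA, a methionine sulfoxide reductase known earlier as Eip71CD, went from 1910 to 92. The larval cuticle gene Lcp65Ag2 went from 12037 to 622. PIG-F, of GPI anchor synthesis, Gga, an adaptor of Golgi transport, and Liprin-gamma, a scaffold protein of the liprin family, had table changes of -4.17, -4.06 and -3.76. The other 2, E(spl)m6-BFM and Jon99Fii, are described with their families. As 2-point half-lives these 10 ran from 26.4 minutes for Zasp52 to 31.9 minutes for Liprin-gamma in the table. In UO scanner they lay between 32.5 minutes for E(spl)m6-BFM and 46.6 minutes for Zasp52, so the order differed, and Zasp52 there was 0.05 below the median gene.

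**Figure D3:**
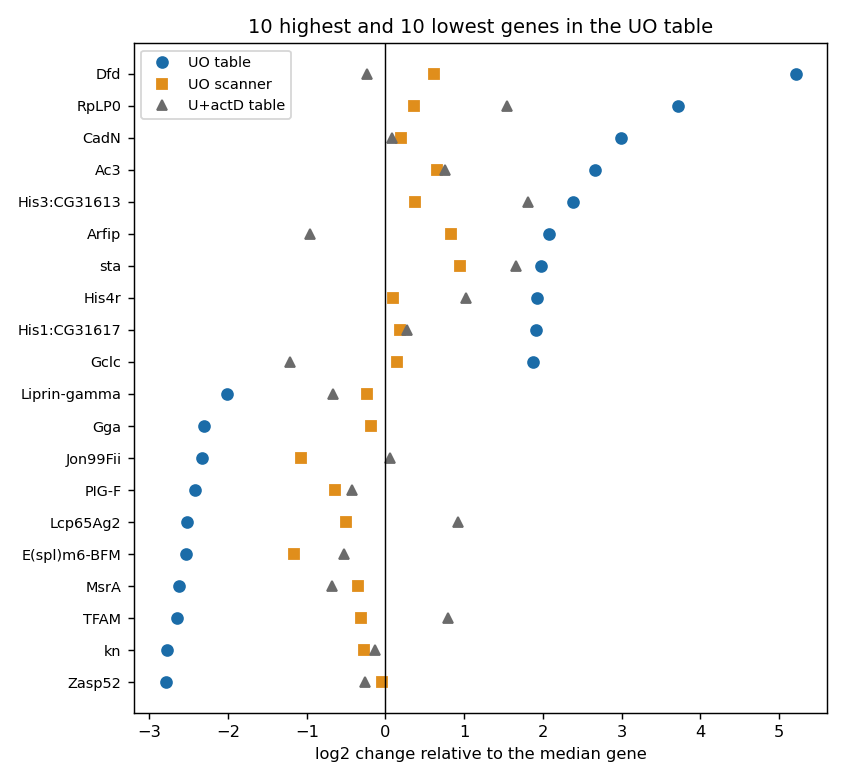
log2 change relative to the median gene (x axis) for the 10 highest and 10 lowest named genes (y axis) in UO table, UO scanner and U+actD table, 1 value per gene and source. The genes lie 1.88 to 5.22 above and 2.01 to 2.79 below the median gene in the table and nearer to 0 in UO scanner.

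Over all genes the shares 2-fold above and below were 9.94% and 4.29% in the table. They were 10.2% and 0.682% in UO scanner and 7.44% and 8.11% in U+actD. List counts are to be read beside these shares. Cytosolic ribosomal protein mRNAs had the highest median change in the table among the larger gene lists, with most members near the scanner's ceiling. Of 85 members in the table, 60 lay 2-fold above the median gene and 0 below, and their median was 1.28 above it, with 72.3% of the 1-hour level left. In UO scanner 24 of 85 lay 2-fold above with a median of 0.54, and in U+actD 75 of 86 with a median of 1.65. The scanner's ceiling moved with this result. Of the 85 members, 73 were near the ceiling on a UO chase in the table, at a median of 77789 at 1 hour and 57210 at 3 hours. In UO scanner 64 of 85 members had saturated probes, and in U+actD 75 of 86 were near the ceiling. The 12 members not near it had a median of 0.02 relative to the median gene, from -0.67 to 1.36, with 1 of 12 called above. RpL26 went from 6561 to 1228, while RpS15 went from 55734 to 42703. RpL35A, the median member, went from 83524 to 60416 in the table, both near the ceiling, and from 22176 to 3592 in UO scanner, with a saturated probe at 1 hour. RpL32, often used as a reference gene, went from 78718, near the ceiling, to 36982. By the factors alone, a probe at the scanner's highest value on both chases reads 0.769 of its 1-hour level at 3 hours, whatever its RNA did. The other 73 members had a median change of -0.376 log2, with 66 near the ceiling at 1 hour and 63 at 3 hours. Their share left can therefore not be read as RNA kept. How far the ceiling set the change of these 73 was not tested.

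Histone mRNAs followed a like pattern in the table. All 12 members lay above the median gene, 6 of them 2-fold, with a median of 1.20, and 6 were near the ceiling on a chase. The 6 not near it had a median of 0.66. His2Av, the replication-independent H2A variant, was the lowest member and went from 31752 to 9547, at 0.01 from the median gene. In UO scanner 10 of 14 histone genes lay above the median gene, 0 of them 2-fold, with a median of 0.13, and in U+actD the median was 0.95. Replicative histone genes are repeated in near-identical copies, so a probe can read several of them. The mitochondrially encoded mRNAs, of the mitochondrial genome's own respiratory chain subunits, had 4 of 10 members 2-fold above and 1 below, with a median of 0.46. Of these, 2 were near the ceiling, and the 8 others had a median of 0.08 with 2 called above. COX2, of cytochrome c oxidase, went from 55998 to 47211, and ND4, of complex I, from 60108 to 8735. In UO scanner all 10 lay above the median gene, with a median of 0.93, 5 of them with saturated probes, and in U+actD all 11 measured lay 2-fold above, 7 of 11 near the ceiling. ND1, of the middle pair of members, was at 0.11 in the table, 1.22 in UO scanner and 1.78 in U+actD.

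**Figure D4:**
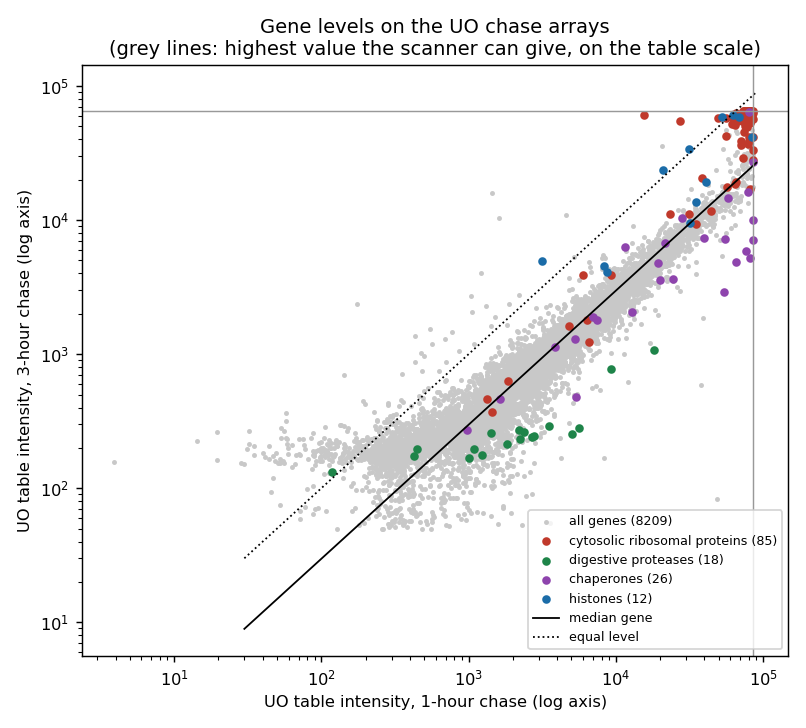
UO table intensity at the 3-hour chase (y axis) against the 1-hour chase (x axis), both on log axes, for 8209 genes, with 4 gene lists in colour, the median gene as a solid line and equal level as a dotted line. Most ribosomal protein genes sit in the corner at the scanner's highest values (grey lines), and the digestive proteases lie mostly below the solid line.

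Other housekeeping groups lay close to the median gene in the table. The 71 mitochondrial ribosomal protein genes had a median of -0.06, with 3 called above and 2 below, and mRpL2, the median member, went from 9467 to 2711. The 71 nuclear encoded respiratory chain genes had a median of -0.09, with 4 above and 1 below, and ND-B17.2, of complex I, went from 35400 to 9896. The 32 proteasome genes had a median of -0.19, with 0 above and 1 below, and Rpt6, an ATPase of the regulatory particle, went from 60411 to 15705. In UO scanner the medians of these 3 lists were -0.24, -0.35 and -0.22. In U+actD they were 0.60, 0.56 and 0.30. Of 17 aminoacyl-tRNA synthetase genes, the enzymes that charge tRNAs, 12 lay below the median gene and 0 were called, with medians of -0.25 in the table, -0.30 in UO scanner and -0.27 in U+actD. SerRS, the median member, went from 6618 to 1653.

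Translation factors divided at the ceiling. Of 42 members 8 lay 2-fold above and 1 below, with a median of -0.09. The 11 near the ceiling had a median of 1.27 and held 7 of the 8, and the 31 others had a median of -0.17. eIF4A, the helicase of translation initiation, went from 70178 to 58071 in the table and eEF1gamma from 73714 to 62455. In UO scanner eIF4A went from 11221 to 3761, with a saturated probe at 1 hour, so its 0.95 above the median gene is not exact. eIF1A, of the middle pair of members, went from 14221 to 3884. Among reference genes, alphaTub84B went from 80178 to 65324, with both values near the ceiling, and lay at 1.45 in the table. In UO scanner it was at 0.05 with a saturated probe at 1 hour. Act5C went from 78682, near the ceiling, to 13483, at -0.80 in the table and 0.06 in UO scanner. Gapdh1, of glycolysis, went from 1251 to 374, at 0.01 in the table and -0.25 in UO scanner.

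Chaperone mRNAs held both kinds of change. Of 26 members 8 lay 2-fold below the median gene and 1 above, with a median of -0.42. The 8 included the small heat shock gene Hsp22, which went from 54454 to 2916, and Hsp70Bb, an inducible Hsp70, from 81649 to 5254 with the 1-hour value near the ceiling. Hsc70-4, the main constitutive Hsc70, went from 80014 to 64444, both near the ceiling. In U+actD 11 of 27 chaperone genes lay 2-fold below (8.11% over all genes), and Hsp22 was at -1.88 and Hsp70Bb at -1.48. In UO scanner 0 of 28 lay 2-fold below, with a median of -0.03, and these genes were at 0.11 and 0.18. The Hsp70 genes are near-identical copies and their probes can read each other.

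Digestive protease genes, the Jonah and trypsin families of gut serine proteases, were the lowest list in the table. Of 18 members 12 lay 2-fold below the median gene and 1 above, with a median of -1.39 and 11.4% of the 1-hour level left. Jon25Biii went from 5643 to 283, Jon99Fii from 18165 to 1072 and Jon25Bii from 2376 to 264. Jon66Ci, at 118 and 131, lay in the lowest class of signal. In UO scanner only 9 members were above background on both chases, with a median of 0.11. Of these 1 was called below, which was Jon99Fii (1311 to 108). Members under background on either chase are left out of that median, so it cannot show the direction of the whole list. In U+actD all 16 members lay above the median gene, 0 of them 2-fold, with a median of 0.33. Their direction there was the opposite of that in the UO table. Only 2 members kept at least 500 on both chases in the table. Of 41 cuticle genes 12 lay 2-fold below and 5 above, against 4.29% and 9.94% of all genes. The 5 above are near that share. The cuticle list had a median of -0.48, against 0.17 in UO scanner and 0.37 in U+actD. Cpr66D, the median member, went from 801 to 171, and Lcp65Ag2 was the lowest. Jonah and Lcp65Ag genes also include near-identical copies.

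As groups, sarcomere and glycolytic genes lay below the median gene in the table. Of 18 sarcomere genes 14 did, 2 of them 2-fold, with a median of -0.56. Mhc, the muscle myosin heavy chain, went from 5539 to 660, and Mf, a myofilament protein of the middle pair of members, from 1273 to 244. sls, the titin-like Sallimus read by 10 probes, lay highest at 0.83. Of 12 glycolytic genes 10 lay below, 2 of them 2-fold, with a median of -0.53. Tpi, triosephosphate isomerase, went from 2613 to 133, and Eno, enolase, from 9608 to 1979. For UO scanner they were -0.03 and -0.25, and Tpi was at 0.31. In U+actD they were -0.23 and -0.32, and Tpi was at 0.85.

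Developmental regulators were near the median gene as groups. The 46 proneural and neural fate genes had a median of -0.0041, with 4 above and 2 below. The 33 homeotic and segmentation genes had a median of 0.15, with 3 above and 2 below, and the 47 axon guidance genes had a median of 0.15, with 3 above and 1 below. In UO scanner these medians were 0.13, 0.10 and 0.26, and in U+actD 0.12, 0.19 and -0.17. slp2, a forkhead factor of segmentation, went from 2007 to 165, and Antp, the thoracic homeotic gene and median member of its list, from 2366 to 780. The receptor drl, of commissural axon choice, went from 51318 to 7142. sli, the midline repellent Slit, went from 1594 to 1140 in the table and from 242 to 93.2 in UO scanner, at 1.27 and 1.15. The 15 Notch target genes of the E(spl) and Bearded families had a median of 0.07, with 0 above and 1 below. That 1 was E(spl)m6-BFM, of the Bearded family, which went from 2388 to 123 in the table and from 1382 to 107 in UO scanner. Its neighbour in the complex E(spl)m4-BFM went from 3570 to 1118. Synaptic and excitability genes had a median of 0.30 in the table and 0.42 in UO scanner, against -0.40 in U+actD, with 8 of 28 above and 2 below. Only 12 of them reached 500 on both table chases, and those had a median of -0.04.

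**Figure D5:**
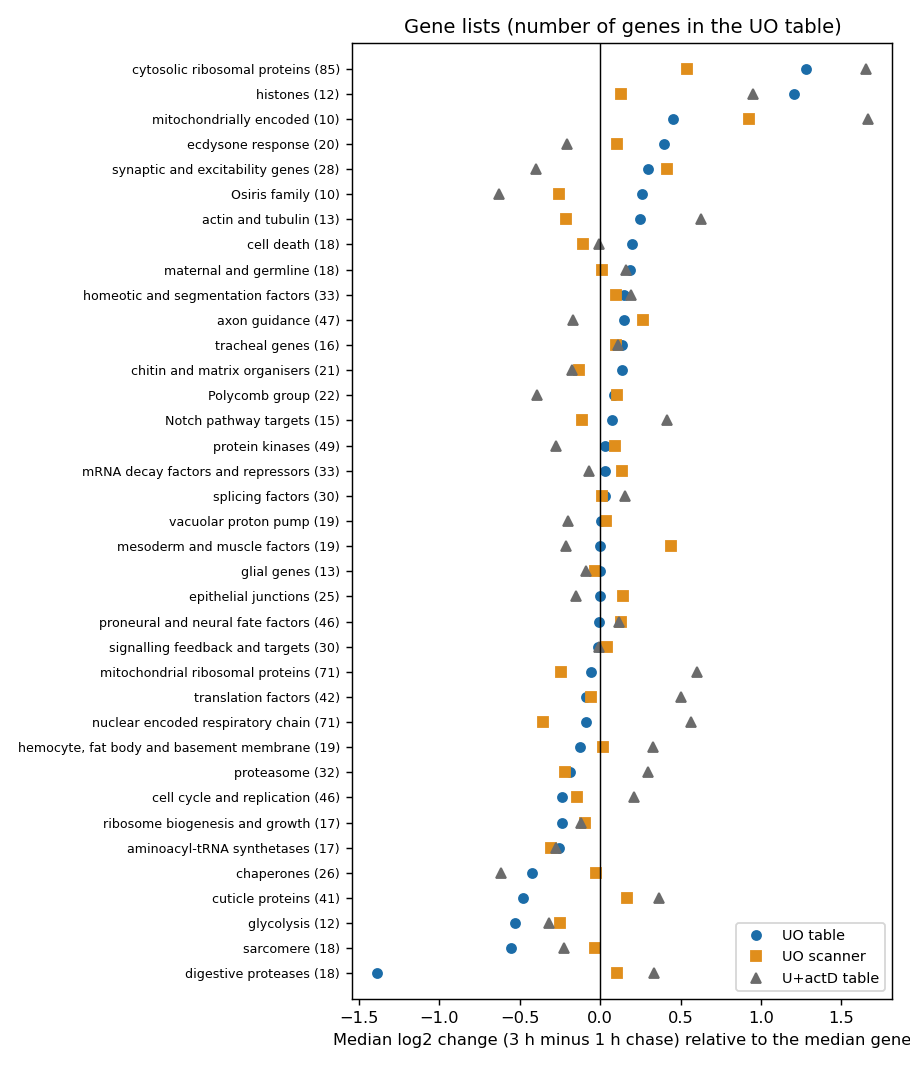
Median log2 change relative to the median gene (x axis) of 37 gene lists (y axis, with the number of genes in the UO table) in UO table, UO scanner and U+actD table. Cytosolic ribosomal proteins lie highest at 1.28 and digestive proteases lowest at -1.39 in the table, and 26 of 37 lists have their median on the same side of 0 in UO table and UO scanner.

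Regulators of growth, neurogenesis and decay were looked at singly. Myc, the growth regulator, went from 4820 to 1008 in the table, 0.51 below the median gene, and from 931 to 70.7 in UO scanner, 1.19 below. In U+actD it lay 1.68 below. arm, the β-catenin of adherens junctions and Wingless signalling, lay 0.98, 1.08 and 1.12 below in the same order. The neuroblast factor dpn went from 2800 to 416, 1.00 below the median gene, but was at 0.09 in UO scanner. cas, a late temporal factor of neuroblasts, went from 2130 to 1492, at 1.24 in the table and 0.29 in UO scanner. pros, which drives neuronal differentiation, went from 8039 to 2555 and was at 0.09 and 1.12. pum, the translational repressor Pumilio, went from 4581 to 833 and was at -0.71 in the table and 1.34 in UO scanner. The Polycomb gene Scm was at 0.09 and 0.57, the cell death activator rpr at 0.30 and 0.60, and the scaffold dlg1 at 0.62 and 0.75. The factors svp, gcm and Hey were at 0.01, 0.15 and -0.26 in the table and at 0.31, -0.05 and -0.26 in UO scanner. The table values were smaller than the 1.61 over which the probes of 1 gene in 10 differed in the table. The UO scanner values were smaller than the 1.42 found in the same way in UO scanner. No such spread was taken for U+actD, and a spread between probes does not hold the error of an array.

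Few single genes departed 2-fold in the same direction in both UO sources. Of 430 genes called above in the table among the 7084 in both sources, 140 were also called above in UO scanner. That is 32.6% of the table's and 28.6% of the scanner's 489. UO scanner called those 489 of the 7084 shared genes above, and 10.2% of all its 7773 genes. For genes called below the overlap was 2, which is 0.699% of 286 and 4.76% of 42. UO scanner called those 42 of the 7084 shared genes below, and 0.682% of all its genes, so an overlap of 2 in 286 is near that share. With at least 500 at 1 hour and 50 at 3 hours in the table and no ceiling or saturation in either source, 6128 genes could be called, and 11 were above in both (0.180%) and 2 below in both (0.0326%). The 2 below were E(spl)m6-BFM and Jon99Fii. They lay at -0.52 and 0.05 in U+actD. Of the 11 above, sli and Hr4, a nuclear receptor of the ecdysone response, were chosen here as examples after their values were seen. Hr4 went from 8377 to 5303 in the table and from 526 to 199 in UO scanner. In U+actD sli and Hr4 lay at 0.16 and 0.12. Of the 10 of these genes with a U+actD value, 2 lay 2-fold above and 2 lay 2-fold below there.

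The sources disagreed widely for a few genes. csul, an arginine methyltransferase of the germline, went from 4090 to 1210 in the table but from 9724 to 131 in UO scanner. RpL30 rose from 27369 to 54538 in the table, with its 3-hour value near the ceiling, and went from 61292 to 9289 in UO scanner. The respiratory chain subunit UQCR-14 went from 20721 to 35486 and from 31934 to 4095 in the same order. The reverse was seen for LysE, a digestive lysozyme, which went from 3308 to 473 in the table and from 330 to 2724 in UO scanner, and for spartin, from 758 to 112 and from 181 to 1481. ntc, an F-box protein of sperm individualisation, went from 958 at the pulse to 48940 and then to 83 in the table, and from 364 to 66.4 in UO scanner.

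Values under 50 at 3 hours were held by 153 probes of 153 genes, and for 126 of those genes no other probe reached 50. Their median 1-hour signal was 384, their median change was -4.23 and the lowest 3-hour value was 1. Of the 153 probes, 68 were above background on both UO scanner chases, with a median change of -2.09 there. That limit leaves out probes under background at 3 hours, and genes of low signal lost less in UO scanner (-1.69 in the lowest class). The -2.09 can therefore not be set against the median gene's -2.52. The probe with the highest 1-hour signal belonged to Cirl, a latrophilin-like receptor, and went from 2337 to 28 in the table. CG13705, CG15646, CG3793 and CG8249 followed, at 2328 to 20, 1767 to 32, 1702 to 49 and 1664 to 3. Another Cirl probe went from 34748 to 12899. The probe that fell to 28 read 370 and 103 in UO scanner before scaling.

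In the table the median change was between -1.77 and -1.74 on 2L, 2R, 3L, 3R and X, and -1.61 over the 71 genes of chromosome 4. UO scanner gave -2.59 to -2.48 on those arms and -2.28 on chromosome 4, and U+actD gave -1.90 to -1.80 and -2.13, on the other side. By gene span, the shortest quartile (184 to 1541 bases) had a median of -1.74 and the longest (6499 to 394149 bases) -1.63. In UO scanner these were -2.67 and -2.31, and in U+actD they ran the other way, at -1.499 and -2.08.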

How the data were processed

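The authors purified the tagged RNA, added spike-in transcripts, labelled it with Cy3 and hybridised each sample to 1 Agilent array. Per the file headers, the UO scanner files hold foreground, local background and net intensity for 45220 spots, and the percent of saturated pixels per spot. The deposited table holds intensity values that the authors had scaled on spike-ins. No factors are given in the sources used here, and 1.09, 1.3 and 1 for the UO pulse, 1-hour and 3-hour arrays were inferred as the largest numbers that divide each column into whole numbers. UO values stood at 16578 of 45220 rows, all with a pulse value of at least 300.84, and were 1 value per probe. The series matrix repeated these numbers (largest difference 0).

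Probes were named through the platform annotation, otherwise the authors' names, with current symbols, and 9572 of 9654 UO probes had a gene. Each gene was given the average log2 intensity of its probes with a 3-hour value of at least 50. The relative change is the log2 change minus that of the median gene. Table probes at 50000 or more before the factor were called near the ceiling, and scanner probes with at least 50 percent saturated pixels saturated. Scanner probes had to exceed the 95th percentile of 153 negative control spots (54 at 1 hour, 50 at 3 hours). The median net signal was 88 and 51, and 67.2% and 56.9% of probes were above background. The number of arrays limits the precision. Named genes were the 10 highest and 10 lowest meeting the conditions given, the highest, lowest and median members of each list, 16 set genes, 5 genes under 50 at 3 hours, and 5 genes in each direction that differed most between the sources. From these sets a selection is given, and arm, Hsp70Bb, RpS15, sli and Hr4 were added after their values were seen. The members, lists and rules were chosen with earlier results of these data known. Sequence features were not analysed here. Gene spans are from RefSeq (Release 6 plus ISO1 MT). The summary was tested on simulated data. Medians have binomial order intervals at 95%. Python 3.11.15, pandas 2.3.3, numpy 2.4.6, scipy 1.17.1, R 4.3.3 and limma 3.58.1 (normexp alternative) were used.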

Additional observations from a re-analysis of the deposited data

Results flagged for a closer look

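Among 7833 genes with values in both chase series of the table, 193 were not lower at 3 hours in UO and lower in U+actD, and 27 showed the reverse. The difference was not tested, since each series has 1 array a time point. Of the 193 genes, 102 were lower at 3 hours in UO scanner, and genes with no UO scanner value are not among the 102. Of all 240 genes not lower in the UO table, 118 had a UO scanner value, and 3 of these were not lower there. With at least 500 on both UO chases and no value near the ceiling, 20 of 4454 genes remained in the first class and 8 in the reverse one. Of the genes described above, 11 drew attention by rising in the UO table and falling in U+actD. Dfd changed by 3.47 in UO and -2.06 in U+actD, RpLP0 by 1.97 and -0.29, CadN by 1.25 and -1.75, and Ac3 by 0.91 and -1.07. UQCR-14 changed by 0.78 and -0.90, His3:CG31613 by 0.64 and -0.02, Arfip by 0.33 and -2.79, and sta by 0.22 and -0.18. His4r changed by 0.17 and -0.81, His1:CG31617 by 0.16 and -1.56, and Gclc by 0.13 and -3.05. All 11 had negative changes in UO scanner, from -2.96 for UQCR-14 to -1.58 for sta. None of these differences was tested.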

How the results depend on the processing

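No paired analysis was possible because each group held 1 array, and for the same reason no replicate could be left out. The median change in the UO table (-1.75) became -1.79 with at least 500 on both chases, -1.68 with 50 added before the log, -1.77 with the brightest probe of each gene and -2.52 in UO scanner. Genes 2-fold above the median gene numbered 188 with at least 500 on both chases. Genes 2-fold below numbered 57 with that limit and 53 in UO scanner, and genes not lower at 3 hours numbered 33 and 18. The UO scanner median (-2.52) became 0.025 with each array scaled to its 75th percentile, a scale that takes out a loss shared by most genes. It became -1.58 with normexp, -1.73 over all probes with dim values set to the threshold and -2.58 with the brightest probe. Lists with a median above 0 numbered 20 of 37 in the table and 17 to 24 under the alternatives. With UO scanner in place of the table, a change of side was seen for 11 of 37 lists. Of the 12 lists beyond 0.25, 3 changed side. Digestive proteases were at 0.11 there, over only the 9 members above background on both chases. Leaving out genes near the ceiling, an alternative chosen after seeing the data, put the ribosomal proteins' median at 0.03. Of the single genes described, 24 of 78 lay on the other side of the median gene in UO scanner. Such counts partly follow from how the genes were chosen. The highest and lowest named genes, apart from those of lists, had to lie on the same side in both UO sources. They could therefore not change side. Others, among them LysE, ntc, RpL30, spartin and UQCR-14, were chosen because the sources differed most. The share is thus not a rate for genes at large. Of the 24, 11 were less than 2-fold from it in the table, among them pum, Act5C, Cpr66D and Mf. The 13 at least 2-fold from it were Hsp22 at 0.11, Hsp70Bb at 0.18, Jon25Bii at 0.22, LysE at 5.57, ND4 at 0.18, RpL30 at -0.20, RpL35A at -0.10, RpS15 at -0.51, Tpi at 0.31, UQCR-14 at -0.44, dpn at 0.086, ntc at 0.073 and spartin at 5.56. Of the other genes described, 34 moved by more than the spread between probes, some of those 11 included. The cause was not tested. Low 3-hour signals and the ceiling of the scanner limit both ends of the range.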
